A study of Mus musculus with 32 samples.

Results

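The 10 genes described here are tied to the heat shock response, measured in mouse mammary tumors. They are the inducible HSP70 genes Hspa1a and Hspa1b, the constitutive HSP70 gene Hspa8, the HSP40 gene Dnajb1, the HSP110 gene Hsph1, the HSP90 gene Hsp90aa1, the small heat shock protein gene Hspb1, and the small nucleolar RNA genes Snord14c, Snord14d and Snord14e, which lie inside Hspa8. They were taken by name from 33654 gene rows present in all 4 deposited tables, and they had been picked because their levels differed over the weeks and between the hairpin groups of these same libraries. Their own values are therefore given as a description, with no p-value. RNA was sequenced from 32 libraries of the MMTV-PyMT mouse mammary tumor model, in which the polyoma middle T oncogene is driven by a mammary tumor virus promoter. Tumor cells were taken at week 2 (3 libraries), week 3 (4) and week 4 (4) of tumor development (early, middle and late stage), and CD8 T cells at the same weeks (3 each). Tumor cells and CD8 T cells were also taken from xenografts of MMTV-PyMT cells with a control hairpin (shCTRL, labelled wild type, 3 libraries of each cell type) or a hairpin against Mogat1 (shMogat1, labelled Mogat1 knockdown, 3 of each). The labels do not give the age or strain of the hosts, or whether replicates came from separate animals, so the spread between libraries may be technical in part.

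Heat shock proteins are chaperones that bind unfolded proteins. HSP70 binds exposed stretches of a client in a cycle driven by ATP, HSP40 proteins such as Dnajb1 bring clients to it, HSP110 proteins such as Hsph1 exchange its nucleotide, HSP90 takes over clients close to their folded state, and small heat shock proteins such as Hspb1 hold clients without ATP. When unfolded proteins accumulate, the transcription factor HSF1 binds heat shock elements and switches on Hspa1a, Hspa1b and Dnajb1 strongly and other chaperone genes more weakly. Hspa8 is highly transcribed in unstressed cells as well. Box C/D small nucleolar RNAs (snoRNAs) such as those of the Snord14 family guide chemical modification of ribosomal RNA. Most are cut from the introns of a host gene after splicing, so that a snoRNA and the messenger RNA of its host come from the same transcripts.

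Levels are given in TPM, the deposited unit, in which reads are divided by gene length and scaled to the same total in every library. The TPM values of short RNAs stepped in whole multiples of 1 read, which showed that 1 read on a gene of 1 kb was worth 0.0633 to 0.117 TPM, and that the Snord14c, Snord14d and Snord14e rows rested on 24 to 1003 reads per library. Cd8a and Cd8b1 together reached 1320.0 to 1914 TPM in the CD8 T cell libraries and 0.319 to 30.7 TPM in the tumor cell libraries. The 5 epithelial markers (Epcam, Cdh1, Krt8, Krt18 and Krt19) summed to 983 to 2072 TPM in the tumor time course and 932 to 972 TPM in the tumor libraries labelled shMogat1. In the tumor libraries labelled shCTRL they summed to 201 to 217 TPM, within the 67.3 to 233 TPM of the CD8 T cell libraries, so these markers do not set that group apart from the CD8 T cells. Mogat1 itself was listed at 0 in the 3 shCTRL tumor libraries and at 0.624, 0.146 and 0.531 TPM in those labelled shMogat1. It was at 0.208, 0.286 and 0.211 TPM in the shCTRL CD8 T cells and at 0.515, 0.577 and 0.208 TPM in those labelled shMogat1. In the tumor cells the target was thus not lower in mean under the hairpin against it, which goes against the label. The tumor values are near the floor, against 1.02 to 39.6 TPM in the tumor time course, and do not settle whether the knockdown worked. The hairpin was in the grafted cells, so Mogat1 in the CD8 T cells does not show this either. Every direction below between these groups is a direction between labels. Libraries of 1 hairpin group were close to each other, with a median standard deviation over genes of 0.0660 and 0.0864 in log2(TPM + 1), against 0.228 and 0.233 in the time courses.

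The 3 snoRNA genes lie on the plus strand of mouse chromosome 9 (GRCm38) inside Hspa8 (chr9:40800984-40810087). In the 9-exon transcript Hspa8-201, Snord14c (chr9:40803583-40803668) is in intron 5, Snord14d (chr9:40803995-40804080) in intron 6 and Snord14e (chr9:40804748-40804837) in intron 8. Of the 10 annotated Hspa8 transcripts, 1 with a retained intron covers all 3 loci with an exon. Reads of the mature snoRNA and reads of unspliced or intron-retaining Hspa8 RNA on the same strand cannot be told apart in a gene table, and the term Snord14 row is used below for that sum. A 4th family member, Snord14a (chr7:116333171-116333257, minus strand), lies in intron 3 of the ribosomal protein gene Rps13 and serves as a relative outside Hspa8. Of the 8 annotated Rps13 transcripts, 5 cover Snord14a with an exon, so its row is not an equal comparison for the rows inside Hspa8. The 4 sequences are given because the levels below depend on how well reads tell them apart. Capitals mark box C (TGATGA) and box D (CTGA), the motifs that bind the core snoRNA proteins.
Snord14c: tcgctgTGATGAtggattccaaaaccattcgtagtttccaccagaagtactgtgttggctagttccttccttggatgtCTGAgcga
Snord14d: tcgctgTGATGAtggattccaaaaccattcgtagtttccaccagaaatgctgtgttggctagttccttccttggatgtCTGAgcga
Snord14e: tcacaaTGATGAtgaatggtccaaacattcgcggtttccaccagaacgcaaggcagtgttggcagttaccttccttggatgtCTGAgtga
Snord14a: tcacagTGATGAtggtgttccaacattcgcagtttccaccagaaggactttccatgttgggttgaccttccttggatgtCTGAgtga
Snord14c and Snord14d differ at 2 of 86 bases (G47A and A49G, Snord14c first, counted from 1 at the 5′ end), an identity of 97.7%. Reads that miss those positions could be assigned to either, so their split is uncertain. The other pairs share 78.0% to 82.6% of aligned positions. The longest run common to all 4 is ccttccttggatgtctgag, 19 bases that include box D. The sequences and positions are those of the GENCODE M21 annotation.

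The inducible HSP70 genes were low in CD8 T cells at week 2 and high at weeks 3 and 4. Hspa1a was at 54.1, 54.8 and 85.4 TPM in the 3 week 2 libraries, at 644, 459 and 437 TPM at week 3 and at 331, 367 and 469.5 TPM at week 4. Every week 3 and week 4 library stood above every week 2 library, and the week 3 and week 4 values overlapped. On the log2(TPM + 1) scale the difference of means, with its standard error (SE), was 2.98 ± 0.22 for week 3 minus week 2, 2.59 ± 0.22 for week 4 minus week 2 and -0.39 ± 0.22 for week 4 minus week 3. Hspa1b, which encodes nearly the same protein, was at 139.9, 143 and 211 TPM at week 2, 1625, 1090.4 and 1061 TPM at week 3 and 834, 936 and 1138 TPM at week 4, with differences of 2.93 ± 0.21, 2.57 ± 0.21 and -0.36 ± 0.21 in the same order. The same library, week 3 replicate 1, was the highest for both genes.

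In tumor cells the same genes differed less between weeks. Hspa1a was at 171, 88.6 and 74.7 TPM at week 2, at 207, 138, 212 and 183 TPM at week 3 and at 125, 171, 124 and 158 TPM at week 4. Week 2 replicate 1 was within the range of the later weeks, and the groups overlapped in each of the 3 comparisons. The differences were 0.80 ± 0.26 (week 3 minus week 2), 0.45 ± 0.26 (week 4 minus week 2) and -0.35 ± 0.24 (week 4 minus week 3). Without week 2 replicate 1 the first was 1.16 and the second 0.81. That library was also higher than replicates 2 and 3 of week 2 in several leukocyte markers, but not in all. Its 5 T cell markers (Cd3e, Cd3d, Cd3g, Cd2 and Lck) summed to 198 TPM against 57.7 and 70.6 TPM, and its Ptprc stood at 98.1 against 27.4 and 42.2 TPM. Its Cd8a and Cd8b1 summed to 30.7 TPM against 11.7 and 28.5 TPM. Its neutrophil markers (S100a8, S100a9 and Csf3r) were the lowest of that week, at 23.2 TPM against 26.3 and 67.9 TPM. The part of leukocytes in its Hspa1a level was not tested. Hspa1b was at 387, 220.3 and 200.2 TPM at week 2, 589, 349.8, 611 and 548 TPM at week 3 and 378, 518, 343 and 451 TPM at week 4, again with an overlap through 1 high library of week 2. Hspa1a and Hspa1b are near-identical copies on chromosome 17 (chr17:34969190-34972156 and chr17:34956436-34959238, GRCm38), so the split of reads between them is uncertain. The ratio of Hspa1b to Hspa1a in TPM, which are values per length, stayed between 2.26 and 3.03 over the 32 libraries.

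Hairpin groups differed in opposite directions in the 2 cell types. In tumor cells, Hspa1a was at 211, 214 and 216 TPM under shCTRL and at 430.3, 423 and 428 TPM in the libraries labelled shMogat1, a difference of 0.99 ± 0.02. In CD8 T cells it was at 598, 624 and 633 TPM under shCTRL and at 524, 493 and 525 TPM in those labelled shMogat1, a difference of -0.27 ± 0.04. Neither pair of groups overlapped. Hspa1b was at 579, 577 and 580.4 against 1203, 1114 and 1120.0 TPM (shCTRL, then shMogat1) in tumor cells, a difference of 0.98 ± 0.03. Its levels in CD8 T cells were 1573, 1488 and 1529 against 1290.0, 1248 and 1296 TPM, a difference of -0.26 ± 0.03. The 3 shCTRL CD8 T cell libraries thus had Hspa1a above 2 of the 3 CD8 T cell libraries of week 3, but the tables were normalized separately, so levels across them are a description.

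Hspa8, the constitutive HSP70, stayed within a narrow range. CD8 T cells had it at 1462, 1394 and 1709 TPM at week 2, 1861, 1707 and 1825 TPM at week 3 and 1999.6, 1756 and 2007 TPM at week 4. Weeks 2 and 3 overlapped by a small margin, week 4 lay above week 2, and the differences were 0.24 ± 0.11, 0.34 ± 0.11 and 0.09 ± 0.11 (week 3 minus 2, week 4 minus 2, week 4 minus 3). Tumor cells went the other way, from 2478, 2301 and 2041 TPM at week 2 to 2067, 2086, 2059 and 2002 TPM at week 3 and 1673, 1875, 1549.8 and 1762 TPM at week 4. All 4 week 4 libraries lay below all libraries of weeks 2 and 3, with differences of -0.41 ± 0.10 and -0.26 ± 0.09. Between hairpin groups Hspa8 was at 2447, 2413 and 2440.4 TPM (shCTRL) and 2722, 2669 and 2719 TPM (shMogat1) in tumor cells, without overlap and with a difference of 0.15 ± 0.02. The CD8 T cell values 2261, 2199.7 and 2193 TPM and 2212, 2210.1 and 2187 TPM overlapped, with a difference of -0.01 ± 0.03 whose sign turned under median-of-ratios rescaling (0.04). That rescaling, which sets the median change of all genes to about 0, also took the week 3 minus week 2 difference in CD8 T cells to 0.12 and the hairpin difference in tumor cells to 0.06. Per length, Hspa8 exceeded Hspa1a by 2.89 to 27.3 times over the 32 libraries, the lowest ratio being in CD8 T cells of week 3 and the highest in tumor cells of week 2.

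**Figure D1:**
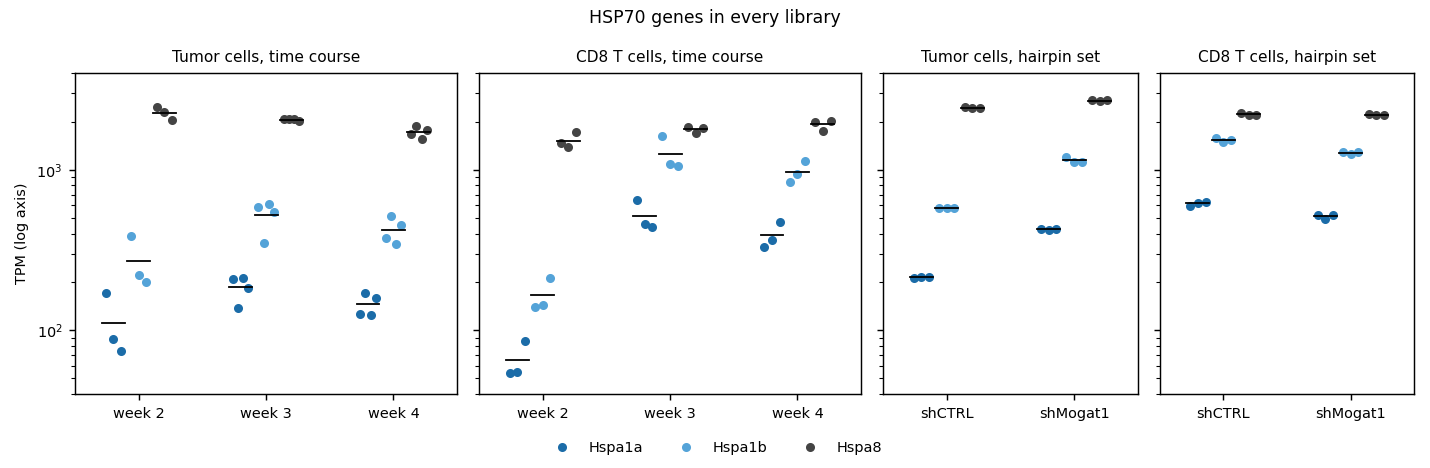
TPM of Hspa1a, Hspa1b and Hspa8 in each of the 32 libraries on a log axis, by week or hairpin label, with 1 panel per deposited table; each point is a library and each black line a group mean. Hspa1a in CD8 T cells lies at 54.1 to 85.4 TPM at week 2 and 437 to 644 TPM at week 3, while Hspa8 stays between 1394 and 2722 TPM in every panel.

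The HSP70 partners Dnajb1 and Hsph1 were at intermediate levels. Dnajb1 (chr8:83608193-83612653) in CD8 T cells was at 201, 212 and 259 TPM at week 2, 431, 309 and 378 TPM at week 3 and 257, 266 and 409.6 TPM at week 4. Week 3 lay above week 2 (difference 0.73 ± 0.20), whereas week 4 overlapped both (differences 0.45 ± 0.20 from week 2 and -0.28 ± 0.20 from week 3). In tumor cells it was at 598, 565 and 412 TPM at week 2, 594, 433, 561 and 483 TPM at week 3 and 304, 375, 280.1 and 353 TPM at week 4. The 4 week 4 libraries lay below all earlier libraries, with differences of -0.67 ± 0.16 from week 2 and -0.66 ± 0.15 from week 3. Under the hairpins, tumor cells had 599.7, 604 and 622 TPM (shCTRL) and 869, 835 and 847 TPM (shMogat1), a difference of 0.48 ± 0.02. CD8 T cells had 513, 498 and 515 TPM and 440.5, 458 and 441 TPM, a difference of -0.19 ± 0.03, and neither pair overlapped.

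Hsph1 (chr5:149614287-149636376) had overlapping groups at every pair of weeks. It was at 144, 133 and 191 TPM at week 2, 258, 166 and 238 TPM at week 3 and 186, 189.8 and 270.4 TPM at week 4 in CD8 T cells, and the groups overlapped in each comparison (differences 0.49 ± 0.21, 0.46 ± 0.21 and -0.03 ± 0.21). In tumor cells the range over all 11 libraries was 158 to 278 TPM, both extremes being at week 4, and the differences were 0.20 ± 0.17, -0.02 ± 0.17 and -0.22 ± 0.15. Rescaling took the first to 0.03, and the smallest differences of both cell types turned sign under an alternative. Hairpin libraries were tighter, at 256, 263 and 255 TPM (shCTRL) against 369, 372 and 387 TPM (shMogat1) in tumor cells and 299, 302 and 299 TPM against 335, 341 and 345 TPM in CD8 T cells. The differences were 0.54 ± 0.02 and 0.18 ± 0.03, both upward and without overlap.

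Hsp90aa1 (chr12:110690605-110702728), the inducible cytosolic HSP90, was at 566, 584 and 826 TPM at week 2, 942, 738 and 989 TPM at week 3 and 1071, 905 and 1121 TPM at week 4 in CD8 T cells. Week 4 lay above week 2 (difference 0.66 ± 0.17), and week 3 overlapped both. In tumor cells it was at 1078, 1240.3 and 1436 TPM at week 2, 1120.1, 1067, 1039 and 1059 TPM at week 3 and 974, 1091, 902 and 1013 TPM at week 4, with differences of -0.21 ± 0.11 and -0.32 ± 0.11 from week 2 and an overlap in each. Rescaling moved the first to -0.39. Like Hsph1, it was higher under shMogat1 in both cell types. Tumor cells had 1089, 1104 and 1062 TPM under shCTRL and 1648, 1645 and 1635 TPM under shMogat1 (difference 0.60 ± 0.02), and CD8 T cells 869, 959 and 953 TPM and 1034, 1041 and 1052 TPM (difference 0.17 ± 0.04).

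Hspb1 (chr5:135887919-135889563), a small heat shock protein abundant in epithelial cells, was much higher in tumor cells than in CD8 T cells. In tumor cells it was at 1136, 1079 and 1043 TPM at week 2, 2538, 1571, 2265 and 2153 TPM at week 3 and 1949.9, 2382, 1937 and 2375 TPM at week 4. All libraries of weeks 3 and 4 lay above all of week 2, with differences of 0.95 ± 0.16 and 0.99 ± 0.16. CD8 T cells had it at 11.9, 25.7 and 49.4 TPM at week 2, 161, 210.4 and 101 TPM at week 3 and 125, 86.7 and 116 TPM at week 4. Weeks 3 and 4 again lay above week 2 (differences 2.55 ± 0.44 and 2.08 ± 0.44), and the 3 week 2 libraries were spread over 11.9 to 49.4 TPM. Tumor cells labelled shMogat1 had 2089.7, 1964 and 2063 TPM against 1316, 1287 and 1274 TPM under shCTRL (difference 0.66 ± 0.03). CD8 T cells labelled shMogat1 had 238, 217 and 224 TPM against 417, 426 and 408 TPM (difference -0.88 ± 0.04).

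Markers of other cell types moved with several of these levels. The 5 epithelial markers in CD8 T cells summed to 67.3 to 110.1 TPM at week 2, 128 to 212 TPM at week 3 and 152 to 233 TPM at week 4, an order that Hspb1 and Hspa1a share in that week 2 was lowest. The 5 macrophage and monocyte markers (Adgre1, Csf1r, Lyz2, Cd68 and Cd14) summed to 50.0 to 297, 171 to 529 and 245 to 355 TPM at the same weeks. The 5 fibroblast markers (Col1a1, Col1a2, Pdgfra, Dcn and Lum) summed to 52.3 to 409, 22.8 to 367 and 25.3 to 31.7 TPM, with no such order. The 3 neutrophil markers (S100a8, S100a9 and Csf3r) summed to 0.169 to 15.7 TPM at week 2, 11.4 to 17.5 TPM at week 3 and 17.2 to 64.1 TPM at week 4, and the 3 endothelial markers (Pecam1, Cdh5 and Kdr) to 95.04 to 122, 75.6 to 100.2 and 27.7 to 70.7 TPM. Several lists also separated week 2 from week 4 in tumor cells. The epithelial sum went up from 983 to 1334 TPM at week 2 to a range of 1698 to 2072 TPM at week 4, and the neutrophil sum from 23.2 to 67.9 TPM to a range of 134 to 222 TPM. The endothelial sum was 59.3 to 172 TPM at week 2 and 11.5 to 20.3 TPM at week 4. The T cell sum was 57.7 to 198 and 17.0 to 33.9 TPM at these weeks, so that both were lower at week 4, as were Cd4 with Foxp3, the CD8 pair and Ptprc. Between the hairpin groups of the tumor cells the epithelial sum was 201 to 217 TPM under shCTRL and 932 to 972 TPM under shMogat1. The fibroblast sum was 3145 to 3177 TPM under shCTRL and 1004 to 1016 TPM under shMogat1, and the macrophage sum 249 to 269 and 436 to 445 TPM. In the CD8 T cells of the hairpin set the fibroblast sum was 1067 to 1087 TPM under shCTRL and 500.4 to 529.8 TPM under shMogat1, the direction of Hspb1. The epithelial sum there was 92.0 to 98.0 and 209 to 213 TPM, the opposite direction. The macrophage and monocyte sum was 1513 to 1536 TPM under shCTRL and 1580 to 1635 TPM under shMogat1 in these CD8 T cells, without overlap. Both ranges lay above those of the CD8 T cell weeks, in a table normalized separately. No marker of these lists was at 0 in all libraries of a group. The share of TPM from mitochondrial genes, a sign of cell or RNA quality, was 3.56% to 4.68% at week 2, 3.66% to 6.01% at week 3 and 5.96% to 7.10% at week 4 in CD8 T cells, with week 4 apart from week 2. It was 4.39% to 4.47% under shCTRL and 5.08% to 5.42% under shMogat1 in tumor cells, without overlap. The CD8 T cells of the hairpin set (3.23% to 4.62% and 4.38% to 4.44%) overlapped. Over the weeks of the tumor cells the share was 6.38% to 12.7%, 7.19% to 9.70% and 9.82% to 16.1%. Week 2 overlapped both later weeks there, whereas week 4 lay above week 3 without overlap. The part of other cells and of RNA quality in the chaperone levels was not tested, and in bulk RNA more cells of a type and more RNA per cell cannot be told apart.

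Summed over the 7 messenger RNAs, the chaperones made up 0.255 to 0.333% of all TPM in CD8 T cells at week 2, 0.468 to 0.592% at week 3 and 0.451 to 0.553% at week 4, so that week 2 lay apart from both. In tumor cells the share was 0.544 to 0.608%, 0.590 to 0.738% and 0.529 to 0.664%, with overlap between weeks. In the hairpin set it was 0.645 to 0.650% under shCTRL and 0.902 to 0.933% under shMogat1 in tumor cells, and 0.650 to 0.653% and 0.601 to 0.607% in CD8 T cells.

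The Snord14 rows inside Hspa8 followed the inducible HSP70 genes over time in CD8 T cells. Snord14d was at 83.6, 45.6 and 60.6 TPM at week 2, 280.2, 319 and 290.0 TPM at week 3 and 197, 193 and 181 TPM at week 4. Each week was separate from the others, with differences of 2.25 ± 0.18 (week 3 minus 2), 1.62 ± 0.18 (week 4 minus 2) and -0.63 ± 0.18 (week 4 minus 3). Snord14c was at 57.6, 35.8 and 37.8, then 179, 212 and 216, then 118, 128 and 101 TPM. Snord14e was at 73.7, 60.7 and 79.8, then 278, 365 and 333, then 204, 203 and 176 TPM. Both showed the same order of weeks without overlap, and week 3 minus week 2 came to 2.21 ± 0.18 for Snord14c and 2.17 ± 0.14 for Snord14e.

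In tumor cells the rows were low at week 2 and high at week 4, and week 3 was mixed. Snord14d was at 39.9, 49.2 and 53.9 TPM at week 2, 268, 85.5, 279.9 and 201 TPM at week 3 and 195, 255, 248 and 153 TPM at week 4. The corresponding values of Snord14c were 34.0, 29.1 and 18.9 TPM, 169, 27.4, 166 and 104 TPM and 112, 135, 166 and 107 TPM, and those of Snord14e 55.2, 61.0 and 61.9 TPM, 207, 55.6, 254 and 187 TPM and 173, 248, 249 and 179 TPM. Week 4 lay above week 2 in all 3 rows, with differences of 2.23 ± 0.52, 2.11 ± 0.35 and 1.80 ± 0.41 for Snord14c, Snord14d and Snord14e. Replicate 2 of week 3 was far below the other 3 libraries of that week and close to week 2. Its Snord14c value rested on 24 reads (95% Poisson interval 17.5 to 40.7 TPM), against 140 reads in replicate 3 (139.7 to 196 TPM). That library was also the lowest of its week for Hspa1a, Hspa1b, Hspb1 and Dnajb1, and had the highest fibroblast sum of its week, 3861 TPM against 788 to 1996 TPM. Its epithelial sum was the highest of the week as well, 1879 TPM against 1413 to 1798 TPM. With replicate 2, week 3 minus week 2 was 1.80 ± 0.52, 1.98 ± 0.35 and 1.35 ± 0.41. Without it the differences were 2.38, 2.36 and 1.83, and week 4 minus week 3 turned from 0.43, 0.13 and 0.45 to -0.15, -0.24 and -0.03. Poisson intervals cover counting error alone.

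Between hairpin groups the Snord14 rows again went in opposite directions. In tumor cells Snord14d was at 148, 143 and 136 TPM (shCTRL) and 351, 373 and 374 TPM (shMogat1), a difference of 1.36 ± 0.04. Snord14c and Snord14e differed by 1.27 ± 0.07 and 1.26 ± 0.07, with ranges of 91.3 to 100.5 TPM (shCTRL) and 205 to 246 TPM (shMogat1) for Snord14c and 166 to 182 and 373 to 468 TPM for Snord14e. Snord14d in CD8 T cells was at 627, 590.4 and 567 TPM (shCTRL) and 341, 337 and 409 TPM (shMogat1), a difference of -0.72 ± 0.07. Snord14c and Snord14e differed by -0.81 ± 0.10 and -0.76 ± 0.11, with ranges of 348 to 396 TPM (shCTRL) and 194 to 253 TPM (shMogat1) for Snord14c and 595 to 789 and 361 to 449 TPM for Snord14e. None of these 6 pairs of groups overlapped.

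**Figure D2:**
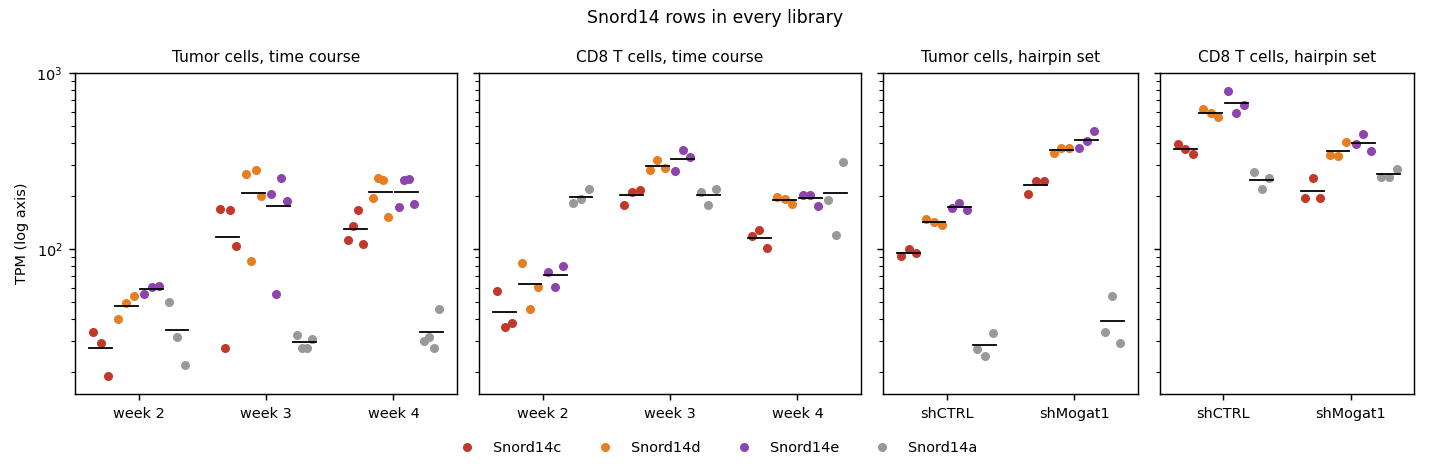
TPM of the Snord14c, Snord14d and Snord14e rows, which lie in introns of Hspa8, and of Snord14a, which lies in an intron of Rps13, in each library on a log axis; points are libraries and black lines group means. Snord14d lies at 45.6 to 83.6 TPM at week 2 and 280.2 to 319 TPM at week 3 in CD8 T cells, while Snord14a covers 184 to 219.6 and 179 to 219.8 TPM, and the low library of tumor week 3 is replicate 2.

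The Snord14 rows differed by more than the messenger RNA of their host. Both host and rows were above week 2 at week 4 in CD8 T cells and above shCTRL in the tumor cells labelled shMogat1, whereas at week 4 in tumor cells Hspa8 was below week 2 and the rows above it. The ratio of Snord14d to Hspa8, both per length, was 0.0327 to 0.0572 at week 2, 0.151 to 0.187 at week 3 and 0.0903 to 0.110 at week 4 in CD8 T cells. In tumor cells it was 0.0161 to 0.0264, 0.0410 to 0.136 and 0.0868 to 0.160 at the same weeks, and no library of week 2 reached any of the later weeks. It was 0.0559 to 0.0604 (shCTRL) and 0.129 to 0.140 (shMogat1) in tumor cells of the hairpin set, and 0.259 to 0.277 and 0.153 to 0.187 in its CD8 T cells. The highest ratio of the series was in shCTRL CD8 T cells and the lowest in tumor cells of week 2.

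Other snoRNAs in introns of other genes give the background for this measure. The log2 difference of a snoRNA row minus that of its host was computed for 71 to 73 other pairs per comparison, each with both genes above the filter. For week 4 minus week 2 in tumor cells the values were 2.63, 2.52 and 2.21 for Snord14c, Snord14d and Snord14e, against a median of 0.22 and a highest value of 1.43 among the other pairs. For week 3 minus week 2 in CD8 T cells they were 1.97, 2.01 and 1.93, and 2 of 72 other pairs were higher than all of them. Under the hairpins they were 1.11, 1.20 and 1.11 in tumor cells, where 1 of 71 other pairs was higher. In CD8 T cells of that set they were -0.80, -0.71 and -0.75, and 69 of 73 other pairs were higher. For week 3 minus week 2 in tumor cells they were 1.94, 2.12 and 1.49, against a highest other value of 1.28. For week 4 minus week 2 in CD8 T cells, 9, 5 and 8 of 72 other pairs were higher than Snord14c, Snord14d and Snord14e. Between weeks 4 and 3, 10, 22 and 10 of 71 were higher in tumor cells and 68, 66 and 67 of 72 in CD8 T cells. The Snord14 rows were picked on these comparisons and the other pairs were not. Pairs that share a host are not independent, and these ranks are a description.

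**Figure D3:**
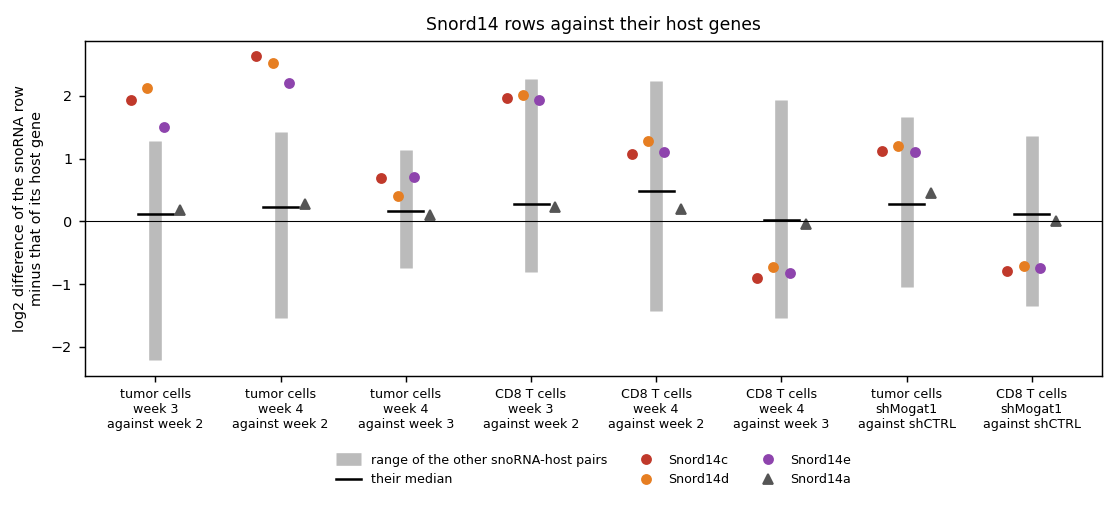
Log2 difference of a snoRNA row minus that of its host gene, for 8 comparisons; circles are Snord14c, Snord14d and Snord14e with host Hspa8, triangles Snord14a with host Rps13, grey bars the range of the other snoRNA and host pairs and black lines their median. In tumor cells of weeks 3 and 4 against week 2 the 3 circles lie above the whole grey bar, while Snord14a lies near its median.

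Snord14a, which shares the run given above with the other 3 but not their host, did not pass the test in any of the 8 comparisons by limma with Benjamini-Hochberg adjustment. It was at 184, 194 and 219.6 TPM at week 2, 209.8, 179 and 219.8 TPM at week 3 and 190.1, 121 and 315 TPM at week 4 in CD8 T cells (log2 difference of 0.03 ± 0.28, adjusted p = 0.978 for week 3 against week 2). Week 4 against week 2 in tumor cells gave a log2 difference of 0.02 ± 0.24, adjusted p = 0.962. The hairpin comparison gave a log2 difference of 0.41 ± 0.21, adjusted p = 0.132, in tumor cells, where leaving out replicate 4 of shMogat1 took it past the threshold with an adjusted p of 0.0448. In CD8 T cells of the hairpin set it gave a log2 difference of 0.11 ± 0.08, adjusted p = 0.311. Snord14d was below Snord14a in 4 of 15 CD8 T cell libraries and in 1 of 17 tumor libraries, the tumor library and 3 of the 4 being of week 2, and the ratio of Snord14d to Snord14a ran from 0.235 to 12.7.

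Counted over the 10 genes, CD8 T cells of week 3 stood above week 2 without overlap in 7 and below it in none, where 15.2% and 5.21% of 13350 tested genes did so. Week 4 stood above week 2 in 8 and below it in none (20.6% and 16.5% of tested genes). It stood below week 3 in the 3 Snord14 rows and above it in none (22.4% and 10.4%). Tumor cells of week 3 stood above week 2 in 2 genes and below it in none (21.2% and 5.64% of 14770 tested genes), or above it in 6 without replicate 2 of week 3. Tumor week 4 stood above week 2 in 4 genes (27.7%) and below it in 2 (17.3%). It stood below week 3 in the same 2, Hspa8 and Dnajb1 (15.9%), and above it in none (13.5%). Tumor cells labelled shMogat1 stood above shCTRL in all 10 and below it in none (39.7% and 22.6% of 12936 tested genes). CD8 T cells so labelled stood below shCTRL in 7 (32.8% of 13742) and above it in 2 (22.1%). Since the genes were picked on these comparisons, nothing is read from the counts.

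In the comparison of week 3 with week 2 in CD8 T cells, 0.0449% of all tested genes passed an adjusted p of 0.05 by limma, and none did with the replicate block. The members' standing in that comparison was used to pick them and is not read as a result. Outside the members 1 gene passed, Ddit4, a stress-induced inhibitor of the kinase mTORC1, which was at 55.8 ± 7.72 TPM (SD, n = 3) at week 2 and 159.7 ± 35.6 TPM at week 3 (log2 difference 1.48 ± 0.17, adjusted p = 0.0205). It was named after its value was seen. Its adjusted p was past the threshold in 5 of 12 alternatives and ranged from 0.00473 to 0.198, with the call ended without a filter on low values, in a fit of the 2 weeks alone and without replicate 1 or 2 of week 2 or replicate 1 or 3 of week 3, and with the replicate block. At week 4 it was at 209 ± 11.3 TPM. All its week 4 libraries lay above those of week 3, whereas all 3 Snord14 rows were lower at week 4 than at week 3.

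**Figure D4:**
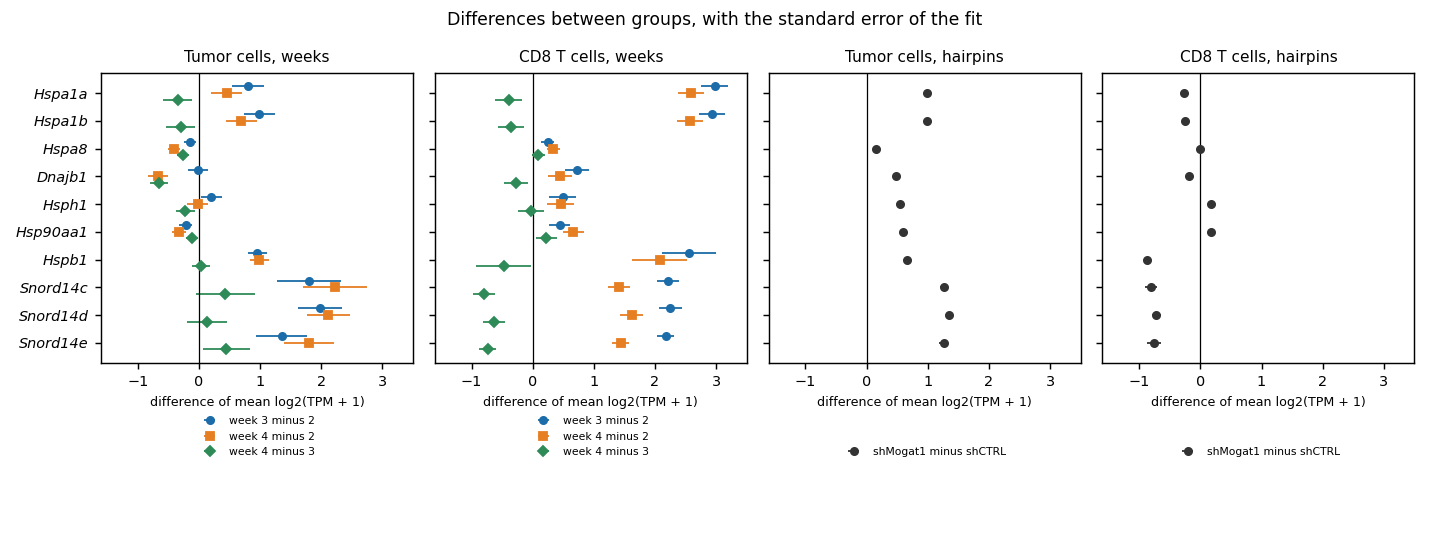
Difference of mean log2(TPM + 1) for the 10 genes (points) with the standard error of the limma fit (bars), by week in tumor cells and CD8 T cells and by hairpin label in both; 0 is no difference. In CD8 T cells Hspa1a reaches 2.98 and Hspa8 0.24 for week 3 minus week 2, and in the hairpin panels Hspa1a lies at 0.99 in tumor cells and -0.27 in CD8 T cells.

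The sequence upstream of the inducible genes was read for heat shock elements, which are built of inverted repeats of GAA. RefSeq promoter windows (GRCm38.p6) matched 5 of the 7 messenger RNA members. Searched were GAANNTTC and TTCNNGAA in the 250 bases before the start, where each motif equals its own reverse complement, so that 1 search covers both strands. Hspa1a and Hspa1b, 98.8% identical over this window, each held 1 GAANNTTC, beginning 104 bases before the start. Hspb1 held 2, beginning 117 and 97 bases before the start, and Hsph1 held 1 TTCNNGAA. Neither motif was found in the windows of Dnajb1, which says only that these letters are not there. A window of Dnajb1 (chr8:83608298-83608547) lies inside the gene (chr8:83608193-83612653), so it is not upstream of that gene start. A longer form with 3 inverted repeats in a row was also searched, and no window of the 5 matched members held it. The matches given here are thus of 2 repeats only. Of 32851 windows of the same length, 6.69% held GAANNTTC, 7.17% held TTCNNGAA and 12.8% held either. The windows of Hspa1a (chr17:34972157-34972406, minus strand) and Hspb1 (chr5:135887669-135887918, plus strand) are shown because among the messenger RNAs, these and Hspa1b had the largest differences between weeks 3 and 2 in CD8 T cells. Capitals mark GAANNTTC.
Hspa1a upstream: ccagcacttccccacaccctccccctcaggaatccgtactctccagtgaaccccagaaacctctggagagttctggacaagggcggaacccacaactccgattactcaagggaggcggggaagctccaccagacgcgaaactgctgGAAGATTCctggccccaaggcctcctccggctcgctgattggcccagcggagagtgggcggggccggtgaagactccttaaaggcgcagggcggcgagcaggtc
Hspb1 upstream: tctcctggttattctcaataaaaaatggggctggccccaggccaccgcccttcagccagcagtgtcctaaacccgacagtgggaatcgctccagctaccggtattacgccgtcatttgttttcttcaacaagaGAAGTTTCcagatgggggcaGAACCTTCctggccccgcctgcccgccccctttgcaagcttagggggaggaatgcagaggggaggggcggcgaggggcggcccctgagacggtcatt
A match is a description of the letters and not evidence of binding.

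Other genes of the chaperone network were counted in fixed lists, with a gene said to have risen or fallen where limma gave an adjusted p under 0.05. The median log2 difference of all tested genes was itself 0.14 and 0.11 for weeks 3 and 4 against week 2 in tumor cells and 0.10 for week 3 against week 2 in CD8 T cells, and rescaling brought these to -0.01, -0.01 and -0.01. At week 3 against week 2 in CD8 T cells, none of 70 other chaperone, co-chaperone and heat shock factor genes passed, and 6 had an unadjusted p under 0.05. Hsf1, the main heat shock factor, gave a log2 difference of -0.22 ± 0.17, adjusted p = 0.624. At week 4 against week 2, 8 of the 70 rose and 4 fell (17.5% of all genes passed), 5 of the 8 being chaperones of the endoplasmic reticulum such as Hspa5, the BiP protein (log2 difference of 0.44 ± 0.11, adjusted p = 0.031). The call for Hspa5 ended in 7 of 12 alternatives (adjusted p 0.0184 to 0.115), and without a filter on low values 3 of the 70 passed, none of them in the endoplasmic reticulum. Leaving out single libraries gave 1 to 18 of the 70, with 1 without replicate 1 or 2 of week 2, 3 without replicate 2 and 4 without replicate 3 of week 4. Dnajc7, a co-chaperone, fell (log2 difference of -0.66 ± 0.09, adjusted p = 0.00386), and did so under all 12 alternatives tried. Between weeks 4 and 3 none of the 70 passed (2.67% of all genes did), 20 had an unadjusted p under 0.05, and 3 passed without replicate 4 of week 4.

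Tumor cells at week 4 against week 2 showed falls in the list of 20 other HSF1-responsive chaperones, with 2 up and 9 down where 46.3% of all tested genes passed, and a list median of -0.18. Hspa4l, an HSP110 relative, fell (log2 difference of -1.94 ± 0.21, adjusted p = 5.0e-05), as did the HSP40 gene Dnaja4 (log2 difference of -2.08 ± 0.27, adjusted p = 1.6e-04) and the polyubiquitin gene Ubb (log2 difference of -0.56 ± 0.09, adjusted p = 6.8e-04). Of 7 mitochondrial chaperone and protease genes 5 rose and none fell, among them Lonp1, a matrix protease (log2 difference of 1.03 ± 0.14, adjusted p = 2.2e-04), Dnaja3 (log2 difference of 0.79 ± 0.12, adjusted p = 3.2e-04) and the mitochondrial HSP70 Hspa9 (log2 difference of 0.47 ± 0.08, adjusted p = 0.00117). With rescaling 3 of the 7 rose. Of 13 chaperones of the endoplasmic reticulum 4 fell, with Dnajc3 first (log2 difference of -0.79 ± 0.11, adjusted p = 2.9e-04). Hsf1 rose (log2 difference of 0.57 ± 0.17, adjusted p = 0.0173), but leaving out replicate 2 or 3 of week 2, or fitting the 2 weeks alone, ended that call. At week 3 against week 2, 4 of the 70 genes rose and 5 fell (24.1% of all genes passed), and the count ran from 3 to 31 as single libraries were left out, lowest without replicate 2 and highest without replicate 1 of week 2. Between weeks 4 and 3, 2 rose and 8 fell (13.7% of all genes), and 5 to 7 passed when any single library was left out, with Dnaja4 again down (log2 difference of -2.19 ± 0.25, adjusted p = 4.4e-04).

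In the tumor libraries labelled shMogat1, 13 of the 20 other HSF1-responsive chaperones rose and 3 fell against shCTRL, where 54.5% of all tested genes passed. Rescaling changed this to 11 and 7, and over all 69 tested chaperone genes it changed 32 up and 15 down to 20 and 27. Dnaja4 rose from 59.3 to 131 TPM (log2 difference of 1.13 ± 0.03, adjusted p = 7.7e-08), the direction opposite to its fall over the weeks. Dnaja1 (log2 difference of 0.57 ± 0.02, adjusted p = 4.6e-07) and Stip1, which links HSP70 to HSP90 (log2 difference of 0.44 ± 0.02, adjusted p = 2.7e-06), rose as well. Of the 8 subunits of the cytosolic chaperonin 6 fell and none rose, led by Cct2 (log2 difference of -0.20 ± 0.02, adjusted p = 9.3e-05). In the endoplasmic reticulum list 10 rose and 2 fell, and 5 rose and 3 fell after rescaling. The 2 that fell were Hspa5 (log2 difference of -0.31 ± 0.02, adjusted p = 5.2e-06) and the calcium-binding chaperone Calr (log2 difference of -0.20 ± 0.02, adjusted p = 2.0e-05). Hsf1 rose (log2 difference of 0.22 ± 0.05, adjusted p = 0.00524).

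In the CD8 T cells labelled shMogat1, 8 of the 20 HSF1-responsive chaperones rose and 5 fell (42.8% of all genes passed). The 3 with the smallest adjusted p all fell, namely the small heat shock protein genes Hspb8 (log2 difference of -1.19 ± 0.06, adjusted p = 3.6e-06) and Cryab (log2 difference of -0.73 ± 0.05, adjusted p = 1.7e-05) and the HSP70 co-chaperone Bag3, a partner of Hspb8 (log2 difference of -0.44 ± 0.05, adjusted p = 3.9e-04). The sum of fibroblast markers was lower in the same libraries, as given above. Of the mitochondrial list 3 fell and none rose, and of the list for the endoplasmic reticulum 5 fell and 1 rose, or 3 and 3 after rescaling. Over all 70 genes 15 rose and 16 fell, which rescaling changed to 24 and 12. Hsf1 gave a log2 difference of 0.03 ± 0.04, adjusted p = 0.476. The immediate early genes, which respond to tissue dissociation as well as to signals, fell in 9 and rose in 3 of 13, with Fosb (log2 difference of -0.94 ± 0.03, adjusted p = 4.0e-07) and Nr4a1 (log2 difference of -0.60 ± 0.03, adjusted p = 3.6e-06) among the 9. In the tumor cells of the hairpin set, where 54.5% of all genes passed, 7 of the 13 rose and 5 fell. Fosb was among those that fell (log2 difference of -0.80 ± 0.02, adjusted p = 9.1e-08). At week 3 against week 2 in CD8 T cells none of the 13 passed, and 3 had an unadjusted p under 0.05. In tumor cells, where Hspa1a, Hspa1b and the Snord14 rows had higher means at week 3 than at week 2, 4 of the 13 rose and none fell. Of all genes 24.1% passed there, and 83.3% of those were higher. The list median was 0.48 against 0.14 for all genes. Fos (log2 difference of 0.80 ± 0.23, adjusted p = 0.0272), Ier3 (log2 difference of 0.51 ± 0.13, adjusted p = 0.0206) and Ier2 (log2 difference of 0.70 ± 0.22, adjusted p = 0.0413) were among the 4. Rescaling left 1 of the 13, none passed without a filter, with the replicate block or in a fit of the 2 weeks alone, and the calls of these 3 genes also ended without 1 or more single libraries of week 2 or 3. The count ran from 0 to 10 of the 13 as single libraries were left out, with none lower, so it both shrank and grew. Whether dissociation took part in the chaperone levels was not tested.

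Other snoRNA rows, 120 in the tables and 100 to 102 tested, were counted in the same way. At week 4 against week 2 in tumor cells, 14 rose and 2 fell, so that 16 of 101 passed where 46.3% of all genes did. The CD8 T cells of those weeks had 9 that rose and 4 that fell, 13 of 102 where 17.5% of all genes passed. Under shMogat1, 27 rose and 1 fell in tumor cells, 28 of 100 where 54.5% of all genes passed. Among CD8 T cells so labelled 15 rose and 3 fell, 18 of 102 where 42.8% of all genes passed. The share that passed was thus below that of all genes in each of these 4 comparisons. At week 4 against week 2 the median log2 difference of these rows was 0.28 in tumor cells (all genes 0.11) and 0.36 in CD8 T cells (all genes -0.01). Under shMogat1 it was 0.30 in tumor cells (all genes 0.07). In each of these the Hspa8 rows were higher as well. In CD8 T cells labelled shMogat1 the median was 0.12 (all genes -0.05), against -0.81, -0.72 and -0.76 for the Hspa8 rows. Snora31, in an intron of Tpt1, rose under shMogat1 in both cell types (log2 difference of 0.57 ± 0.08, adjusted p = 4.2e-04 in tumor cells and log2 difference of 0.39 ± 0.06, adjusted p = 0.00126 in CD8 T cells). Snord52 was among the 3 that fell in CD8 T cells (log2 difference of -1.10 ± 0.18, adjusted p = 0.00196).

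Likeness of pattern was measured by Pearson's r of log2(TPM + 1), as a description over libraries that share their weeks. Over the 9 CD8 T cell libraries of the time course, Hspa1a correlated with Hspa1b at 1.000, with Snord14d at 0.939 and with Hspa8 at 0.828, while Hspa8 was closest to Hsp90aa1 among the members (0.973). Outside the members, the genes most like Hspa1a were Pggt1b (r = 0.961), Ttc19 (r = 0.943) and Gbe1 (r = 0.940), those most like Hspa8 Cela1 (r = 0.980), Hspd1 (r = 0.956) and Hist1h2bg (r = 0.952), and those most like Snord14d Cept1 (r = 0.971), Cpsf6 (r = 0.962) and Gm31595 (r = 0.948). Hspd1 is the mitochondrial HSP60. Over the 11 tumor libraries, Snord14d correlated with Hspa1a at 0.602, with Hspb1 at 0.940 and with its host Hspa8 at -0.660. Its correlation with the host in CD8 T cells was 0.701, and Snord14c and Snord14e stood at 0.611 and 0.687. In the tumor libraries Dnajb1 was the member closest to Hspa8 (0.907). Outside the members, Vac14 (r = 0.963), Pold1 (r = 0.963) and Pou6f1 (r = 0.958) were most like Hspa1a, Oasl1 (r = 0.980), Otud4 (r = 0.974) and Gfod1 (r = 0.971) most like Hspa8 and Zkscan8 (r = 0.984), A230050P20Rik (r = 0.983) and Mmgt2 (r = 0.973) most like Snord14d.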

How the data were processed

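Stranded messenger RNA libraries were made from 1 ug of total RNA extracted with TRIZOL, per the labels' protocols. Reads were handled with FastQC, Trim Galore and HISAT2 on mm10, per the submitters' processing notes. The read counter and annotation are not given in the sources used here. The authors deposited TPM values in 4 tables, which were tested separately because they were normalized separately. In each table, 27 rows whose gene names had become dates were left out. The 10 members and all gene lists were chosen with earlier results of these data known, so members carry no p-value.

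Genes with at least 1 TPM in at least 3 libraries were fitted on log2(TPM + 1) with limma 3.58.1 in R 4.3.3 (moderated, with an intensity trend), all groups of a table in 1 fit. Adjusted p-values are Benjamini-Hochberg over all tested genes, with a threshold of 0.05, and a fold change on this scale understates the change of low genes. The fit was tested on simulated data. Named genes are all members, Hsf1, Mogat1, up to 3 genes per list and comparison with the smallest adjusted p, up to 3 other snoRNA rows, Snord14a, and the 3 genes most correlated with Hspa1a, Hspa8 and Snord14d. Read numbers of short RNAs were recovered from the steps of their TPM values. In the time courses, replicate libraries differed by 7.18 to 52.3 (tumor) and 11.9 to 25.1 (CD8) times the counting noise (median squared difference). In the hairpin sets the range was 2.58 to 3.02 in tumor cells and 2.66 to 3.85 in CD8 T cells. None was thus a copy of the reads of another. Repeat libraries of 1 RNA sample cannot be told from separate samples in this way. Nothing in the labels says that replicates are separate animals, so p-values measure the spread between libraries. Alternatives were a pseudocount of 0.1, no filter, median-of-ratios and quantile rescaling, a replicate block, fits of 2 groups alone, and leaving out each library.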

Additional observations from a re-analysis of the deposited data

Results flagged for a closer look

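Every library labelled shMogat1 lay above every shCTRL library in tumor cells, and below every shCTRL library in CD8 T cells, for 7 of the 10 genes. The differences of mean log2(TPM + 1), tumor cells first, were 0.995 and -0.27 for Hspa1a, 0.983 and -0.26 for Hspa1b, 0.481 and -0.19 for Dnajb1, and 0.657 and -0.88 for Hspb1. For the snoRNA rows inside Hspa8 they were 1.27 and -0.81 for Snord14c, 1.36 and -0.72 for Snord14d, and 1.26 and -0.76 for Snord14e. Hspa8 itself went in opposite directions over time, with all week 4 libraries below week 2 in tumor cells (-0.405) and above it in CD8 T cells (0.34). The difference between the cell types was not tested in any of these cases, because their tables were normalized separately.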

How the results depend on the processing

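Of 80 member differences, 8 turned sign under some alternative. These were the Snord14c, Snord14d, Snord14e and Hspb1 differences between weeks 4 and 3 in tumor cells, Dnajb1 and Hsph1 in tumor cells, Hsph1 in CD8 T cells, and Hspa8 between the hairpin groups of CD8 T cells. Among the genes named from the lists, with Hsf1 and Snord14a, none reversed while past the threshold. The other tested genes were not checked for this.

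Counts past the threshold moved by over 1.5 times as follows. For week 3 against week 2 in tumor cells, the 9 chaperone genes outside the members became 17 with median-of-ratios rescaling and 4 in a fit of these 2 weeks alone, where all genes went from 3560 to 1637. For week 4 against week 3 in tumor cells that fit gave 21 chaperones instead of 10 and 3857 genes instead of 2026. For week 4 against week 2 in CD8 T cells, 12 chaperones became 3 without a filter and 3 in the fit of these 2 weeks, where all genes went from 2335 to 1356. For week 4 against week 3 in CD8 T cells, 356 genes became 234 without a filter and 605 with quantile normalization, which gave 1 chaperone instead of 0. The cause was not tested.

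Same-numbered libraries of 2 groups had correlations of their deviations from -0.26 to 0.43, with no common sign. With so few libraries per group these values cannot settle whether replicate numbers pair the libraries. With the replicate block, the 9, 10, 12 and 31 chaperones of tumor weeks 3 and 2, tumor weeks 4 and 3, CD8 weeks 4 and 2 and the CD8 hairpin groups became 5, 6, 3 and 17. All genes went from 6 to 0, from 2335 to 1422 and from 356 to 3 in the CD8 comparisons of weeks 3 and 2, 4 and 2, and 4 and 3.

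Leaving out single libraries gave ranges, for all genes and then chaperones, of 1371 to 5751 and 3 to 31 (tumor weeks 3 and 2), 5278 to 7765 and 23 to 42 (tumor weeks 4 and 2), 1251 to 1656 and 5 to 7 (tumor weeks 4 and 3), 5 to 10 and 0 to 0 (CD8 weeks 3 and 2), 928 to 3115 and 1 to 18 (CD8 weeks 4 and 2), 46 to 630 and 0 to 3 (CD8 weeks 4 and 3), 5842 to 6369 and 42 to 46 (tumor hairpin groups), and 4620 to 5465 and 27 to 35 (CD8 hairpin groups). In tumor weeks 3 and 2 the extremes were without replicate 2 and without replicate 1 of week 2, and week 3 lost genes without replicate 3 (2275) or 4 (2259). In tumor weeks 4 and 3 counts moved by over 1.5 times without replicate 3 of week 3 (1251) and replicate 3 (1289) or 4 (1294) of week 4. In CD8 weeks 3 and 2 the 10 came without replicate 3 of week 2. In CD8 weeks 4 and 2 the low counts came without replicate 1 (950) or 2 (928) of week 2 and replicate 2 (1103) or 3 (1161) of week 4. In CD8 weeks 4 and 3 each of the 6 libraries moved the count, from 46 without replicate 3 of week 3 to 630 without replicate 4 of week 4. The share of called genes that were higher went, with median-of-ratios rescaling, from 83.3% to 58.1% and from 63.1% to 50.9% for tumor weeks 3 and 4 against 2, from 51.7% to 67.6% for CD8 weeks 4 and 3, and from 63.5% to 45.4% and 38.8% to 50.2% for the tumor and CD8 hairpin groups. With quantile normalization it went from 40.3% to 51.5% for tumor weeks 4 and 3 and from 59.0% to 47.9% for CD8 weeks 4 and 2. Counting error limits the precision of Snord14 rows at low levels, such as the 24 reads of Snord14c in replicate 2 of tumor week 3.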
